A study of Mus musculus with 8 samples.

Results

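Cholesterol and fatty acids are both built from cytosolic acetyl-CoA. The mevalonate steps make isoprenoid units, the sterol steps join these into squalene and shape the ring system into cholesterol, and a separate branch turns acetyl-CoA into saturated and monounsaturated fatty acids. Transcription of most of these enzymes is driven by the SREBP factors, which are held in the endoplasmic reticulum by INSIG proteins while sterols are plentiful and are escorted out by SCAP when sterols are scarce. Proliferating cells such as embryonic stem cells use both branches to make membranes.

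The genes described here are those of mevalonate and cholesterol synthesis, SREBP control and fatty acid synthesis, taken by symbol from a list of 30 names. A row was found for 28 genes of the 38991 gene identifiers in the files, 6 of the mevalonate steps, 11 of the sterol steps, 5 of SREBP control and 6 of fatty acid synthesis. Msmo1 stands under its older symbol Sc4mol, and Mvd was not analysed here. The genes were chosen by their place in the pathway with the FPKM differences between iPKO and iPHet already known, so each count and median over them describes these libraries and supports nothing by itself.

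RNA was sequenced from 4 iPKO libraries, in which Prmt5 was deleted, and 4 iPHet control libraries of male C57BL/6 mouse embryonic stem cells. Prmt5 codes for an enzyme that dimethylates arginines of histones and of spliceosomal Sm proteins. All cells, control cells included, came from blastocysts at embryonic day 3.5, had been derived on mouse embryonic fibroblasts with LIF and the MEK inhibitor PD0325901, were kept in 2i ground state medium, and were exposed to 2 µM 4-hydroxytamoxifen for 48 hours before fresh medium was given. For most experiments 1 line per genotype was used, so genotype and line cannot be told apart. From its name the iPHet control may be heterozygous at Prmt5. The labels name neither the recombinase that 4-hydroxytamoxifen acts on nor its promoter.

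The values are FPKM as deposited, a level per length of transcript, so levels of different genes can be set side by side. Prmt5 was at 11.8 to 15.0 FPKM in the iPKO libraries, against 52.8 to 72.2 FPKM in the iPHet libraries. The 7 stem cell markers examined summed to 1203 to 1318 FPKM in iPKO and to 1220 to 1482 FPKM in iPHet. Of them only Sox2, a pluripotency factor, was called, at an adjusted p under 0.05 in the limma fit used throughout. It had 68.0, 72.7, 68.6 and 70.9 FPKM in iPKO libraries 1 to 4, against 97.6, 88.4, 95.0 and 86.3 FPKM in iPHet libraries 1 to 4 (log2 change -0.38, SE 0.06, limma adjusted p = 0.00539), and its part in the results below was not tested. The 9 fibroblast markers summed to 1.22 to 2.05 FPKM in iPKO and to 1.63 to 2.81 FPKM in iPHet, with Lum and Postn at 0 in every library, and the 7 primitive endoderm markers to 3.63 to 5.92 FPKM in iPKO and to 5.11 to 5.78 FPKM in iPHet. The 5 markers of visceral endoderm, a lipid-exporting tissue, summed to 0.068 to 0.164 FPKM in iPKO and to 0.016 to 0.076 FPKM in iPHet, with Apoa4 and Ttr at 0 in every library. Sequencing depth cannot be read from FPKM and is unknown here. In bulk RNA, fewer cells that express a gene and less RNA per cell cannot be told apart.

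Within each genotype libraries 1 and 3, and libraries 2 and 4, were far closer to each other than to the rest. Over the 28 genes the median absolute log2 ratio between 2 libraries was 0.04 and 0.06 within the iPKO pairs and 0.05 and 0.05 within the iPHet pairs. Between libraries of different pairs it was 0.15 to 0.19 in iPKO and 0.28 to 0.37 in iPHet. Between an iPHet and an iPKO library it was 0.24 to 0.49, a range that holds the gap between the iPHet pairs. Over the 8126 genes used for comparing libraries it was 0.21 to 0.23 between pairs of a genotype and 0.21 to 0.27 between genotypes. The labels do not say whether any of these libraries came from separate cultures, so the p-values below reflect only how much these libraries vary, part or all of which can be technical. Rose and fell stand for an adjusted p under 0.05 in limma on log2(FPKM + 1) over all 8 libraries, with Benjamini-Hochberg adjustment over all 12462 genes tested.

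By that test 10 of the 28 genes fell in iPKO, 0 rose and 18 were not called, beside a background of 9.53% of all tested genes called lower, 6.3% called higher and 15.8% called in either direction. Nothing is read from that contrast, since it was known when the genes were chosen. Over all genes the calls split into 1188 lower and 785 higher, which became 946 and 936 with quantile normalization and 863 and 960 with median ratio scaling. At an unadjusted p under 0.05 the same limma fit had 17 of the 28 lower and 0 higher. The share of all tested genes at an unadjusted p was not counted, here or in the fits below. The unadjusted counts therefore have no background, and each background share given is for the adjusted threshold. The median log2 change of the 28 genes was -0.30, against -0.04 over all tested genes. All 28 passed the filter on low values, which asked that the mean of iPKO or of iPHet reach 1 FPKM. With the members of each pair averaged, which leaves 2 against 2 units, limma called 0 of the 28 genes at the adjusted threshold (background 0.0562% called). At an unadjusted p under 0.05 it had 8, all lower. With an odd/even term added to the averages it called 0 (background 0.0481%), and had 9 lower unadjusted. With protein-coding genes alone in that fit it called 1, Tm7sf2 (background 1.05% lower), and had 12 lower unadjusted. With all 8 libraries and an estimated correlation within pairs it called 0 (background 0.233% lower), and had 12 lower unadjusted. The 10 genes called in the first fit had a limma adjusted p there from 0.0792 for Tm7sf2 to 0.296 for Dhcr7. With the replicate number as a block limma called 15, all lower (background 16.6%). That block still takes libraries 1 and 3, and libraries 2 and 4, as separate. The calls below therefore rest on taking the 8 libraries as separate.

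**Figure D1:**
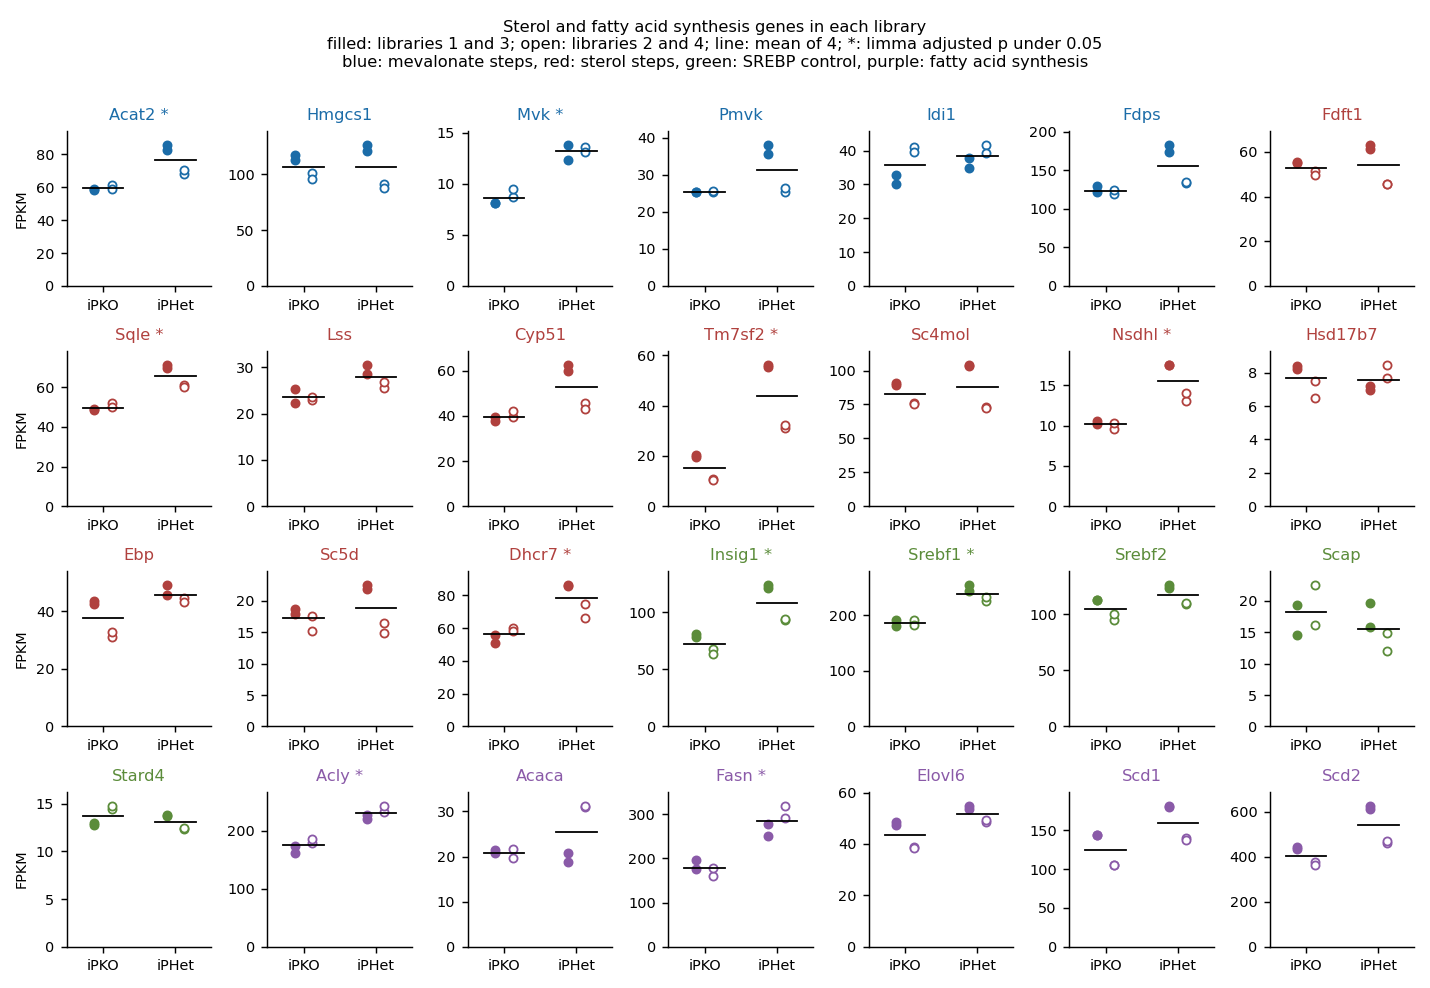
FPKM of each of the 28 genes (vertical axes, each from 0) in the 4 iPKO libraries and the 4 iPHet libraries, with libraries 1 and 3 as filled and libraries 2 and 4 as open points, the mean of 4 as a line, and an asterisk on the 10 called genes. The iPKO points of the called genes all lie below the iPHet points, and the iPHet pairs of many mevalonate and sterol genes stand apart from each other.

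The promoters of these genes are shown first, because genes of this pathway are known to share binding sites for SREBP, NF-Y and Sp1. RefSeq windows of GRCm38.p6 (the build of mm10), from 250 bases before to 50 bases after each start, were matched for 22 of the 28 genes. Fdps, Fdft1, Sqle, Scd1, Scd2 and Stard4 had no window and were not searched. The sterol regulatory element was searched on both strands as TCACNCCAC only, so other forms of it were not looked for. This motif stood in the window of 1 of the 22 genes, Hmgcs1, against 1.47% of the tested genes with a window. The NF-Y motif CCAAT, also on both strands, stood in windows of 18 of the 22 genes (81.8%). Of tested genes 43.7% had it, and of all genes with a window 41.06%. The Sp1 motif GGGCGG stood in 18 of 22, against 70.97% of tested genes and 38.2% of all genes with a window. The E-box CACGTG stood in 5 of 22, against 12.5% of tested genes and 8.09% of all genes with a window. CCAAT did not sort the genes by their change. It stood in 8 of the 9 genes that fell and had a window, and in 10 of the 13 that were not called. Acaca, not called and without CCAAT, was searched only in a window inside the gene. Its stretch before the RefSeq start was chr11:84195188-84195437 on the plus strand, while the gene begins at 84129672. The only overlap among the matches of these 4 motifs in the 22 genes was in Fasn, where a CCAAT and its reverse complement ATTGG share bases.

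Promoters of 5 genes are given from 250 bases before the RefSeq start up to it, on the coding strand. CCAAT or ATTGG, and in Hmgcs1 also the TCACNCCAC match, stand in capitals. Mvk, Fasn, Insig1 and Tm7sf2 are shown because they had the largest falls of the 4 groups of genes. Hmgcs1 is shown because it averaged 107 FPKM in both genotypes and alone held TCACNCCAC among the 22 genes searched. The 5 stretches lie at chr5:114444019-114444268 on the plus strand (Mvk), chr11:120824548-120824797 on the minus strand (Fasn), chr5:28071162-28071411 on the plus strand (Insig1), chr19:6067851-6068100 on the minus strand (Tm7sf2) and chr13:119690101-119690350 on the plus strand (Hmgcs1). In GENCODE the whole Tm7sf2 stretch lies inside Tm7sf2 itself (6062821 to 6068373) and inside Vps51 (6067842 to 6077231), both on the minus strand.
Mvk: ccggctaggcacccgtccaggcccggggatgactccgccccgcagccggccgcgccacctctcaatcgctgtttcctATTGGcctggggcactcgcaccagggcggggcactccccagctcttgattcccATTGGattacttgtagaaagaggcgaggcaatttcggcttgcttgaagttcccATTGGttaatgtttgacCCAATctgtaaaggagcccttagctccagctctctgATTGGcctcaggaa
Fasn: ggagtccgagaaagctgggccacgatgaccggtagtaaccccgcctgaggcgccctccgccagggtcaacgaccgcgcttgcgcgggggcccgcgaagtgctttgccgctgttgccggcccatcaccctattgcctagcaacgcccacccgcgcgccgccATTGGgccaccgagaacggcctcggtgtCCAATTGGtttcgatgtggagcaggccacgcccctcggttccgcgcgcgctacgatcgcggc
Insig1: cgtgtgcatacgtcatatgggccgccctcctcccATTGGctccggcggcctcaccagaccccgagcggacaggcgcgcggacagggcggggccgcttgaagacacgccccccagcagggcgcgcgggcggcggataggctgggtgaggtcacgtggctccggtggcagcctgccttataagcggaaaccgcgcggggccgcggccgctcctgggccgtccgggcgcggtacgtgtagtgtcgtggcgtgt
Tm7sf2: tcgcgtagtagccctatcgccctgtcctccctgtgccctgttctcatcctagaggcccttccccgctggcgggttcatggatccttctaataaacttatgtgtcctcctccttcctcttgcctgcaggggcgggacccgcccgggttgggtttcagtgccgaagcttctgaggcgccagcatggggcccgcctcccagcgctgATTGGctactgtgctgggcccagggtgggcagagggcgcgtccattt
Hmgcs1: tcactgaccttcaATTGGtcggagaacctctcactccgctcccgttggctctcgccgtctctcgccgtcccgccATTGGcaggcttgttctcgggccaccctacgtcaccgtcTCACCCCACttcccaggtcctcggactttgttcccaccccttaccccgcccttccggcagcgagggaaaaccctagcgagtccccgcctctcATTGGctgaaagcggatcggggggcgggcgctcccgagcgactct
Mvk holds 5 matches of the NF-Y motif in this stretch, Fasn and Hmgcs1 3 each, and Insig1 and Tm7sf2 1 each. The TCACNCCAC match in Hmgcs1 begins 137 bases before the start. A match describes letters in a window and is not a measured site.

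Of the 6 mevalonate genes 2 fell, Mvk and Acat2, 0 rose and 4 were not called. Mvk, mevalonate kinase, had 8.12, 8.71, 8.09 and 9.48 FPKM in iPKO libraries 1 to 4, against 13.8, 13.6, 12.3 and 13.1 FPKM in iPHet libraries 1 to 4. Every iPKO library lay well below the iPHet range. Its means were 8.60 ± 0.651 FPKM in iPKO and 13.2 ± 0.656 FPKM in iPHet (SD, n = 4 each), 1.54-fold lower in iPKO, with a log2 change of -0.57 (SE 0.07, limma adjusted p = 0.00221), of -0.62 in odd-numbered and -0.51 in even-numbered libraries. Mvk (ENSMUSG00000041939) lies on chromosome 5 from 114444269 to 114460591 of mm10 and overlaps no other annotated gene.

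Acat2, the acetoacetyl-CoA thiolase that opens the pathway, had 58.9, 61.3, 58.2 and 59.1 FPKM in iPKO libraries 1 to 4, against 85.9, 68.3, 82.9 and 70.5 FPKM in iPHet libraries 1 to 4. The iPKO libraries were nearly level, while the iPHet pairs differed. The log2 change was -0.36 (SE 0.08, limma adjusted p = 0.024), and -0.52 in the odd-numbered against -0.20 in the even-numbered libraries. When 1 library was left out, any of iPHet 1 and 3 and iPKO 1, 3 and 4, the call ended (limma adjusted p between 0.0544 and 0.0622).

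Fdps, farnesyl diphosphate synthase, and Pmvk, phosphomevalonate kinase, had the same shape without a call. Fdps had 122, 119, 129.5 and 124 FPKM in iPKO libraries 1 to 4, against 173, 134, 183 and 134 FPKM in iPHet libraries 1 to 4 (log2 change -0.32, SE 0.11, limma adjusted p = 0.0963, 0.0558 with the replicate number as a block). Pmvk had 25.2 to 25.6 FPKM in iPKO, against 38.1 and 35.7 FPKM in iPHet libraries 1 and 3 and 25.3 and 26.5 FPKM in iPHet libraries 2 and 4 (log2 change -0.27, SE 0.13, limma adjusted p = 0.198, 0.157 with that block). The Pmvk difference stood in the odd-numbered libraries alone, where the log2 change was -0.53, against -0.02 in the even-numbered ones. Fdps overlaps Gm43738, an annotated protein-coding gene, on the same strand.

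Hmgcs1, the HMG-CoA synthase of the cytosol, had 117, 102, 113 and 95.8 FPKM in iPKO libraries 1 to 4, against 127, 91.8, 121 and 87.4 FPKM in iPHet libraries 1 to 4. The genotypes overlapped fully, and the log2 change was 0.02 (SE 0.14, limma adjusted p = 0.945). Idi1, the isopentenyl diphosphate isomerase, averaged 35.9 ± 5.18 FPKM in iPKO and 38.4 ± 2.83 FPKM in iPHet (SD, n = 4 each, log2 change -0.10, SE 0.11, limma adjusted p = 0.554).

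Of the 11 sterol genes 4 fell, Tm7sf2, Nsdhl, Dhcr7 and Sqle, 0 rose and 7 were not called. Tm7sf2, a sterol C14 reductase, had 20.2, 10.9, 19.6 and 10.5 FPKM in iPKO libraries 1 to 4, against 55.3, 31.1, 56.1 and 32.4 FPKM in iPHet libraries 1 to 4. Both genotypes showed the same gap between the pairs, and the fall was of like size in each. Its log2 change was the largest of the 28 genes at -1.46 (SE 0.29, limma adjusted p = 0.0133), with -1.44 in odd-numbered and -1.49 in even-numbered libraries, and its mean in iPKO was 34.95% of that in iPHet. Tm7sf2 (ENSMUSG00000024799) lies on chromosome 19 from 6062821 to 6068373 of mm10 and overlaps Vps51 on the same strand, so the genes can exchange reads. Vps51, a subunit of a vesicle tethering complex, averaged 20.6 ± 3.56 FPKM in iPKO and 17.5 ± 1.12 FPKM in iPHet (SD, n = 4 each, log2 change 0.21, limma adjusted p = 0.255).

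Nsdhl, which removes the C4 methyl carbons as a dehydrogenase, had 10.6, 9.55, 10.2 and 10.4 FPKM in iPKO libraries 1 to 4, against 17.5, 13.1, 17.4 and 13.97 FPKM in iPHet libraries 1 to 4 (log2 change -0.55, SE 0.10, limma adjusted p = 0.0108). Dhcr7, the reductase that makes cholesterol from 7-dehydrocholesterol, had 50.6, 60.01, 55.9 and 58.2 FPKM in iPKO libraries 1 to 4, against 85.8, 66.4, 86.1 and 74.5 FPKM in iPHet libraries 1 to 4 (log2 change -0.46, SE 0.10, limma adjusted p = 0.0172). Sqle, the squalene epoxidase, had 49.1, 51.8, 48.5 and 49.9 FPKM in iPKO libraries 1 to 4, against 69.8, 61.2, 71.2 and 60.3 FPKM in iPHet libraries 1 to 4 (log2 change -0.39, SE 0.07, limma adjusted p = 0.0101). In all 3 the genotypes did not overlap, and the log2 change was larger in the odd-numbered libraries (-0.70, -0.68 and -0.52) than in the even-numbered ones (-0.41, -0.25 and -0.25).

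Cyp51, the lanosterol demethylase, and Lss, the lanosterol synthase, had no overlap between the genotypes, with iPKO lower, but were not called. Cyp51 had 39.3, 39.4, 37.9 and 42.2 FPKM in iPKO libraries 1 to 4, against 62.5, 45.8, 59.7 and 43.0 FPKM in iPHet libraries 1 to 4 (log2 change -0.38, SE 0.12, limma adjusted p = 0.0727, 0.0863 with the replicate number as a block), and it was called without iPHet 4 (limma adjusted p = 0.0434). Lss averaged 23.5 ± 1.28 FPKM in iPKO and 27.8 ± 2.10 FPKM in iPHet (SD, n = 4 each, log2 change -0.23, SE 0.07, limma adjusted p = 0.0588, 0.0247 with the block and 0.575 with an estimated correlation within pairs). The margin between the genotypes was small in both genes. Cyp51 overlaps Akap9 on the other strand.

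The remaining 5 sterol genes overlapped between the genotypes. Ebp, the sterol isomerase, averaged 37.6 ± 6.44 FPKM in iPKO and 45.7 ± 2.52 FPKM in iPHet (SD, n = 4 each, limma adjusted p = 0.137, 0.0596 with the replicate block). Fdft1, the squalene synthase at the entry to sterols, averaged 52.9 ± 2.75 FPKM in iPKO and 54.0 ± 9.56 FPKM in iPHet (SD, n = 4 each, log2 change -0.01, SE 0.12, limma adjusted p = 0.95), and its sign turned with quantile normalization (0.04). For Sc4mol, Sc5d and Hsd17b7, which act on the C4 methyls, the C5 bond and the C3 ketone, the log2 changes were -0.07, -0.10 and 0.01 (limma adjusted p of 0.779, 0.658 and 0.956). Sc4mol also turned sign with quantile normalization, at a value near 0. Fdft1 overlaps Ctsb on the other strand.

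Of the 5 genes of SREBP control 2 fell, Insig1 and Srebf1, 0 rose and 3 were not called. Insig1, the retention protein and itself a known target of SREBP, had 80.7, 67.6, 78.3 and 63.2 FPKM in iPKO libraries 1 to 4, against 123, 93.0, 121 and 94.1 FPKM in iPHet libraries 1 to 4. The genotypes did not overlap, and the log2 change was -0.56 (SE 0.13, limma adjusted p = 0.0212), with -0.61 in odd-numbered and -0.51 in even-numbered libraries. When 1 library was left out, any of iPHet 1 and 3 and iPKO 2 and 4, the call ended (limma adjusted p between 0.0533 and 0.056).

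Srebf1, which encodes SREBP-1, had 181, 191, 191 and 181 FPKM in iPKO libraries 1 to 4, against 243, 226, 253 and 233 FPKM in iPHet libraries 1 to 4 (log2 change -0.36, SE 0.06, limma adjusted p = 0.00742). Srebf2, which encodes SREBP-2, had 113, 94.9, 113 and 100.2 FPKM in iPKO libraries 1 to 4, against 123, 109, 126 and 110.4 FPKM in iPHet libraries 1 to 4 (log2 change -0.16, SE 0.08, limma adjusted p = 0.24, 0.0359 with the replicate block). With an estimated correlation within pairs the limma adjusted p was 0.221 for Srebf1 and 0.618 for Srebf2. The Srebf1 groups were separate and the Srebf2 groups overlapped. Srebf1 overlaps Rai1 on the other strand. Scap, the escort, averaged 18.2 ± 3.52 FPKM in iPKO and 15.6 ± 3.18 FPKM in iPHet (SD, n = 4 each, limma adjusted p = 0.442). Stard4, a carrier of sterols between membranes, averaged 13.7 ± 1.03 FPKM in iPKO and 13.1 ± 0.833 FPKM in iPHet (SD, n = 4 each, limma adjusted p = 0.577).

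Of the 6 genes of fatty acid synthesis 2 fell, Fasn and Acly, 0 rose and 4 were not called. Fasn, fatty acid synthase, had 176, 161, 195 and 179 FPKM in iPKO libraries 1 to 4, against 252, 292, 278 and 319 FPKM in iPHet libraries 1 to 4. It was 1.61-fold lower in iPKO, with a log2 change of -0.68 (SE 0.09, limma adjusted p = 0.00321), and unlike in Nsdhl, Dhcr7 and Sqle its change was larger in the even-numbered libraries (-0.85) than in the odd-numbered ones (-0.51). The difference between these 2 values was not tested. Fasn (ENSMUSG00000025153) lies on chromosome 11 from 120805940 to 120824178 of mm10.

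Acly, the ATP citrate lyase that supplies cytosolic acetyl-CoA to both branches, had 161, 179, 173 and 186 FPKM in iPKO libraries 1 to 4, against 219.9, 232, 227 and 243 FPKM in iPHet libraries 1 to 4 (log2 change -0.40, SE 0.07, limma adjusted p = 0.00681). The genotypes were separate, and the change was alike in the odd-numbered (-0.42) and even-numbered (-0.38) libraries. Acaca, the acetyl-CoA carboxylase that commits carbon to fatty acids, had 20.8, 21.7, 21.4 and 19.7 FPKM in iPKO libraries 1 to 4, against 20.9, 31.1, 18.9 and 31.3 FPKM in iPHet libraries 1 to 4. Here the iPHet pairs alone stood apart, in the opposite order from most sterol genes, and the gene was not called (log2 change -0.24, SE 0.17, limma adjusted p = 0.356). Acaca overlaps Gm11437 on the other strand.

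The desaturases Scd1 and Scd2, which introduce the double bond of monounsaturated fatty acids, lie near each other on chromosome 19. Scd2 was the highest of the 28 genes in level, with 433, 374, 443 and 364 FPKM in iPKO libraries 1 to 4, against 613, 458, 626 and 468 FPKM in iPHet libraries 1 to 4 (log2 change -0.41, SE 0.13, limma adjusted p = 0.0695, 0.0109 with the replicate block). Scd1 had 144, 105, 144 and 106 FPKM in iPKO libraries 1 to 4, against 180.3, 140.3, 182 and 137 FPKM in iPHet libraries 1 to 4 (log2 change -0.36, SE 0.15, limma adjusted p = 0.151, 0.00652 with the block). Elovl6, the elongase of saturated chains, averaged 43.4 ± 5.47 FPKM in iPKO and 51.5 ± 3.18 FPKM in iPHet (SD, n = 4 each, limma adjusted p = 0.115, 0.0246 with the block). With an estimated correlation within pairs the limma adjusted p was 0.29 for Scd2, 0.41 for Scd1 and 0.42 for Elovl6. All 3 genes were lower in iPKO within the odd-numbered and within the even-numbered libraries, by log2 changes between -0.17 and -0.50.

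**Figure D2:**
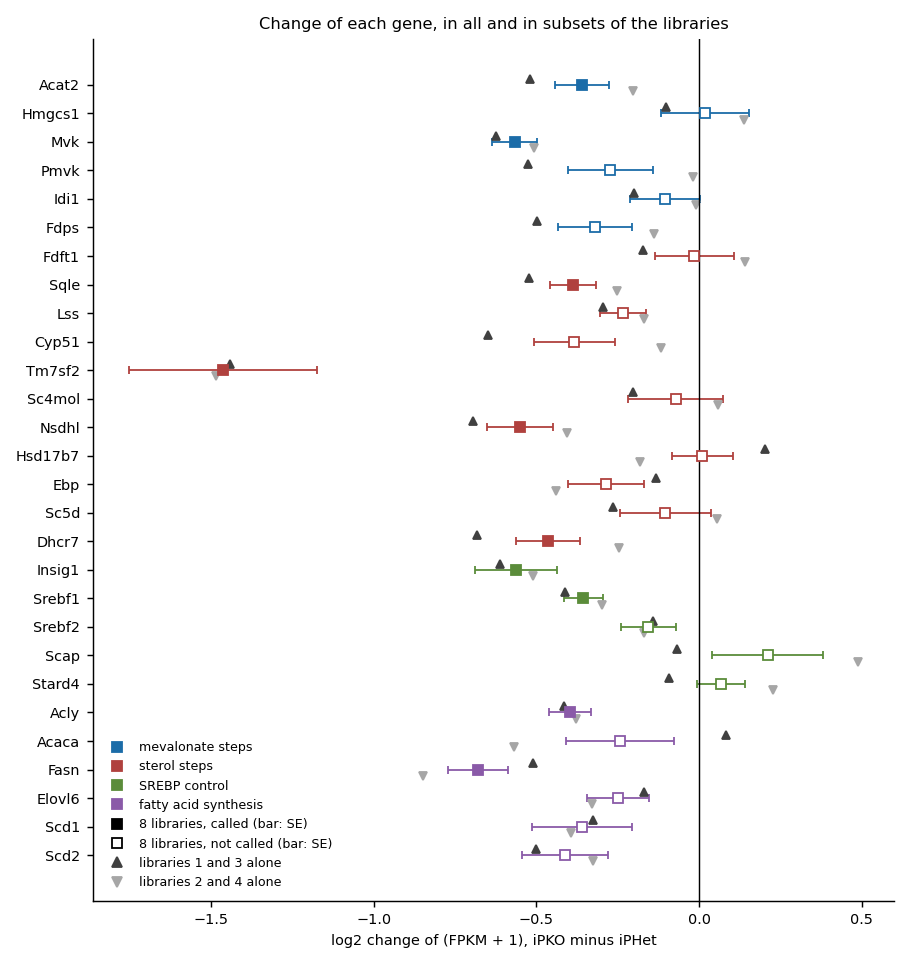
Log2 change of (FPKM + 1), iPKO minus iPHet, of each of the 28 genes in pathway order, as squares with the SE for all 8 libraries (filled where called) and as triangles for libraries 1 and 3 or libraries 2 and 4 alone. Tm7sf2 stands farthest left at -1.46, and for most mevalonate and sterol genes the change in libraries 1 and 3 lies left of that in libraries 2 and 4.

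The fitted change was not of the same size in the library pairs, and that difference was not tested. Of the 28 genes 20 had a lower mean in iPKO in each of the odd-numbered and even-numbered sets, a pattern that 37.2% of all tested genes had. In 14 of the 20 the difference was larger in the odd-numbered set, for which no share of all tested genes was counted. Of the rest of the 28 genes 6 were lower in the odd-numbered libraries alone and 2 in the even-numbered ones alone. The median log2 change of the mevalonate genes was -0.51 in odd-numbered and -0.08 in even-numbered libraries, and that of the sterol genes -0.30 and -0.18. For the fatty acid genes the medians were -0.37 and -0.39. Over all tested genes they were -0.05 and -0.02.

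The gap between the pairs within a genotype was wider in iPHet than in iPKO for the sterol branch. The median log2 difference of libraries 1 and 3 from libraries 2 and 4 was -0.03 in iPKO and 0.35 in iPHet for the mevalonate genes, and 0.13 in iPKO and 0.37 in iPHet for the sterol genes. For the fatty acid genes it was 0.19 in iPKO and 0.03 in iPHet, and over 12106 genes above 0 in every library 0.04 in iPKO and 0.07 in iPHet. Of the 28 genes 18 were higher in libraries 1 and 3 in iPKO (64.3%) and 22 in iPHet (78.6%). Over the 12106 genes the shares were 54.1% in iPKO and 58.0% in iPHet. Summed over all genes, FPKM came to 458856 and 458690 in iPHet libraries 1 and 3. In the other libraries it came to 411827 to 421412. The part of this sum in the gap was not tested. The labels do not say what separates libraries 1 and 3 from libraries 2 and 4, and its part in these results was not tested beyond the fits named here.

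**Figure D3:**
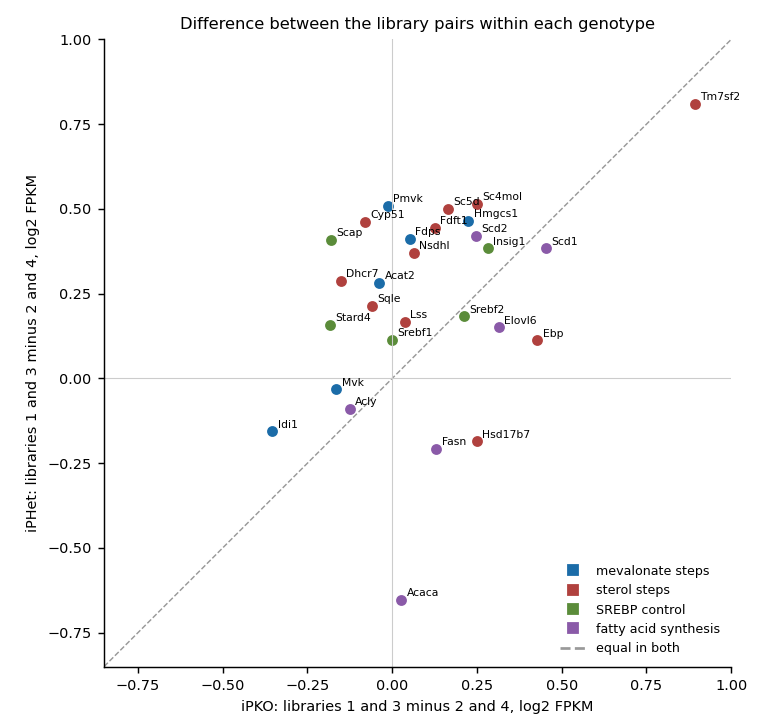
Difference in mean log2 FPKM of libraries 1 and 3 from libraries 2 and 4 within iPKO (horizontal) and within iPHet (vertical) for each of the 28 genes, with a dashed line where both are equal. Most mevalonate and sterol genes lie above the line, Tm7sf2 has a gap near 0.9 and 0.8 in the 2 genotypes, and Acaca lies alone at the bottom with an iPHet value of -0.65.

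Separation of the genotypes was counted over the same genes. In 14 of the 28 genes the highest iPKO value stood below the lowest iPHet value, the 10 called genes with Scd2, Fdps, Cyp51 and Lss, and in 0 the order was the reverse. Among all tested genes 15% had the first order and 10.1% the reverse. The FPKM values of 7 of the 28 genes lay outside the authors' own confidence bounds in all 8 libraries, above the upper bound for Srebf1, Srebf2 and Fdps and below the lower bound for Scd1, Scd2, Elovl6 and Hmgcs1. Among all tested genes 16.9% had values outside in every library. With the midpoint of the bounds in place of FPKM, 10 of the 28 genes were again called lower, and Srebf1 averaged 120.3 in iPKO and 164 in iPHet with a log2 change of -0.44 (limma adjusted p = 0.00455). On the FPKM scale it averaged 186 in iPKO and 239 in iPHet, so the 2 measures differ more in level than the genotypes do.

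Summed over the 28 genes, the libraries held 2158, 1997, 2216 and 2004 FPKM in iPKO libraries 1 to 4, against 2899, 2460, 2950 and 2518 FPKM in iPHet libraries 1 to 4. That was 0.48 to 0.536 percent of all FPKM in iPKO and 0.589 to 0.643 percent in iPHet, with no overlap. How often sums over other genes lack an overlap was not counted. The summed mevalonate genes came to 353.7 to 364.9 FPKM in iPKO and 371.1 to 475.5 FPKM in iPHet, a small margin. For SREBP control the sums were 382.1 to 414.5 FPKM in iPKO and 452.2 to 533.4 FPKM in iPHet. The summed sterol genes came to 375 to 411 FPKM in iPKO and 431 to 564 FPKM in iPHet, and the summed fatty acid genes to 879 to 1026 FPKM in iPKO and 1202 to 1386 FPKM in iPHet.

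Other genes of lipid supply were taken from a list of 53 symbols, of which 48 passed the filter on low values. Of these 18 fell, 1 rose and 29 were not called, at a median log2 change of -0.18, beside 9.53% of all tested genes called lower and 6.3% called higher. With an estimated correlation within the pairs limma called 1 of them, Slc25a1, which was lower (background 0.233% lower). It had 16 lower and 1 higher at an unadjusted p under 0.05. With pair averages limma called 0 of them (background 0.0562% called), and had 10 lower and 1 higher at an unadjusted p under 0.05. For these unadjusted counts too no share of all genes was counted. The smallest p belonged to Slc25a1, the carrier that exports mitochondrial citrate, the substrate of Acly. It had 29.8, 24.9, 31.6 and 25.8 FPKM in iPKO libraries 1 to 4, against 56.2, 53.2, 57.2 and 56.6 FPKM in iPHet libraries 1 to 4. The groups were far apart beside their spread, with a log2 change of -0.97 (SE 0.08, limma adjusted p = 0.000592) and a mean 1.99-fold lower in iPKO. It was also called, with Aacs and Dgat1, in the fit of protein-coding pair averages with an odd/even term.

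Further genes of sterol synthesis and SREBP processing on that list were called lower. Lbr, the other sterol C14 reductase beside Tm7sf2 and a protein of the nuclear membrane, averaged 45.1 ± 1.04 FPKM in iPKO and 61.0 ± 1.09 FPKM in iPHet (SD, n = 4 each, log2 change -0.43, limma adjusted p = 0.00142). Mbtps1, the protease that first cleaves SREBP, averaged 28.9 ± 1.45 FPKM in iPKO and 37.5 ± 1.77 FPKM in iPHet (SD, n = 4 each, limma adjusted p = 0.00683). Aacs, acetoacetyl-CoA synthetase, fell by 0.72 and Erlin2, an endoplasmic reticulum protein of INSIG turnover, by 0.29 on the log2 scale (limma adjusted p of 0.00821 and 0.0109). Lbr overlaps Dnah14.

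The acyl-CoA synthetases Acsl3 and Acsl4 fell by 0.47 and 0.34 on the log2 scale (limma adjusted p of 0.00866 and 0.00995), Acsl4 not with quantile normalization (0.0536). Acsl3 overlaps Utp14b on the same strand. The 1 gene that rose was Dgat1, the enzyme of the last step of triglyceride synthesis. It had 70.1, 47.6, 69.4 and 44.3 FPKM in iPKO libraries 1 to 4, against 32.7, 24.7, 29.9 and 28.6 FPKM in iPHet libraries 1 to 4 (log2 change 0.95, SE 0.17, limma adjusted p = 0.00937). Its iPKO pairs differed from each other, yet the lowest iPKO value was above the highest iPHet value.

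**Figure D4:**
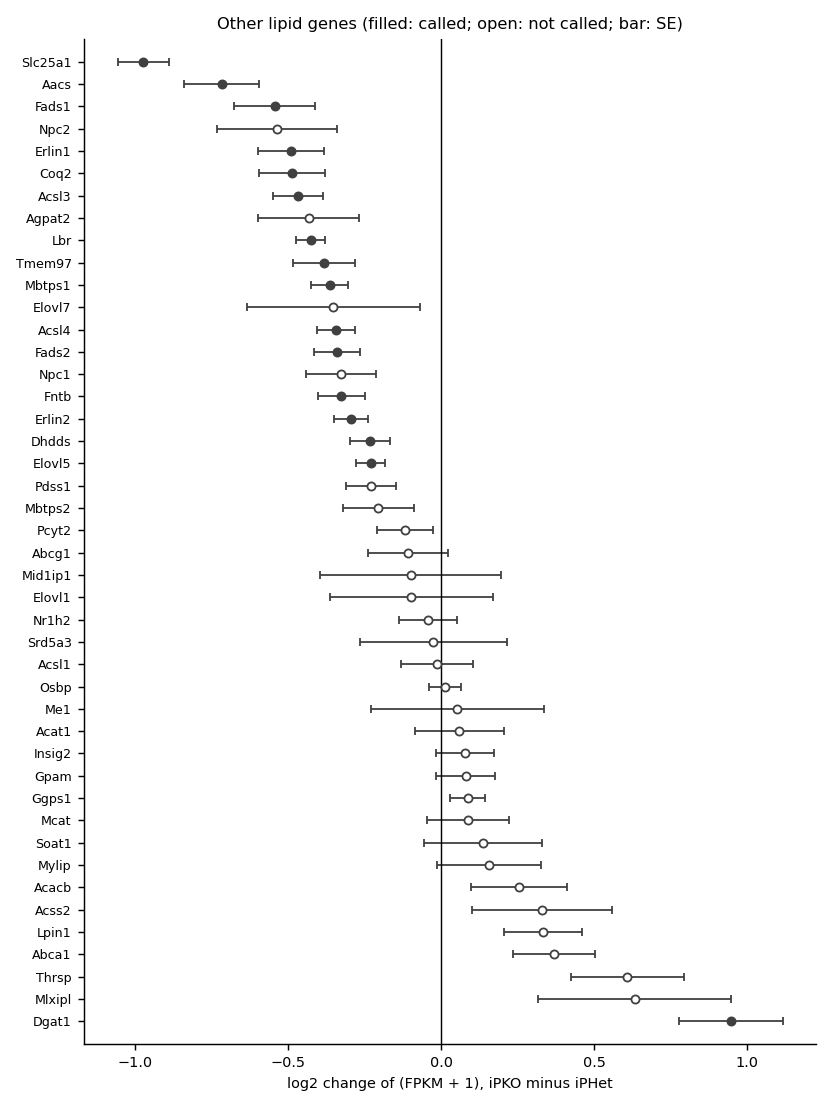
Log2 change of (FPKM + 1), iPKO minus iPHet, with its SE for 44 of the 48 tested genes of the second list, ordered by their change and filled where called. Slc25a1, at -0.97, and Aacs, at -0.72, lie farthest to the left of those shown, and Dgat1, at 0.95, is the 1 called gene on the right.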

How the data were processed

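RNA of 8 libraries, 4 iPKO and 4 iPHet, was made from total RNA with a TruSeq kit and read as pairs on an Illumina instrument, per the labels' protocols. The authors deposited FPKM values per gene with lower and upper bounds, per the file headers. Per the submitters' processing notes, Trimmomatic was used and mm10 was the build. Which aligner and which program gave the FPKM values, with what strand setting, is not given in the sources used here. Any scaling between libraries is not stated, and reads of overlapping genes can be exchanged.

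Rows of 19 identifiers found more than once were summed. Genes whose iPKO or iPHet mean reached 1 FPKM were tested on log2(FPKM + 1), which understates changes of low genes. The test was limma 3.58.1, its prior variance following mean expression, in R 4.3.3. Calls needed a Benjamini-Hochberg adjusted p under 0.05 over all 12462 genes. The fit was tried on simulated data whose libraries were drawn independently, so that trial could not show what near-alike pairs do to the calls. Gene types and overlaps came from GENCODE vM21 and promoters from RefSeq GRCm38.p6. The design had foreseen limma for values that are not counts. Deviations from the group means correlated between same-numbered iPKO and iPHet libraries at 0.104, 0.162, 0.204 and 0.107 for numbers 1 to 4, all over 0.1, so the numbers were taken to pair the libraries. This pairing comes from the data, since the labels state none. Libraries of different number but both odd or both even also correlated, at 0.086 for iPKO 1 with iPHet 3, 0.091 for iPKO 2 with iPHet 4, 0.077 for iPKO 3 with iPHet 1 and 0.124 for iPKO 4 with iPHet 2. The last is above the 0.107 of iPKO 4 with iPHet 4, so number and odd/even split are not clearly separable.

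The genes and lists were chosen with earlier results of these data known. All genes of the list are accounted for, called ones by library, and of the second list the called genes among the 10 with the smallest adjusted p are named, except where a gene is not reported here. Alternatives covered the pseudocount, the filter, scaling, the replicate block, averaged pairs, odd or even libraries, protein-coding genes and leaving out each library. The protein-coding pair averages and the midpoints of the bounds were chosen after seeing the data.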

Additional observations from a re-analysis of the deposited data

How the results depend on the processing

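The count of 10 genes lower was the same with a pseudocount of 0.1, no filter, a minimum of 5 FPKM, either scaling, protein-coding genes alone and the midpoints of the bounds. It was 15 with the replicate block, which called 5 further genes lower (Lss, Srebf2, Scd1, Scd2 and Elovl6) and ended no call of the 28. It was 18 with an odd/even term, 20 with odd-numbered libraries alone, 15 with even-numbered ones alone, and 8 to 11 leaving out single libraries. Of all 12462 tested genes 1188 were called lower in the main fit. These became 2072 with the block, 2821 with the odd/even term, and 3205 and 2545 in the odd- and even-numbered libraries. Among the 28 the count was 0 with pair averages, 0 with an odd/even term on them, and 0 with an estimated correlation within pairs. In that last fit limma had 12 lower at an unadjusted p under 0.05. For protein-coding genes the count was 0 with pair averages and 1 with the term. Genes called higher numbered 1 in the odd-numbered libraries (Hsd17b7) and 2 in the even-numbered ones (Fdft1 and Stard4), beside 2111 and 2036 of all tested genes.

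The number of all genes called, 1973, became 3427 with the replicate block, 4729 with the odd/even term, 7 and 6 with pair averages without and with the term, 52 with the estimated correlation, 5316 and 4581 in the odd- and even-numbered libraries, 198 and 0 for protein-coding pair averages with and without the term, and 1264 to 1416 without single libraries. The median log2 change of the 28 genes was -0.23 with quantile normalization, -0.26 with median ratio scaling, -0.37 and -0.22 in the odd- and even-numbered libraries, and -0.37 to -0.28 without single libraries.

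Of the second list the lower count of 18 was 12 with quantile normalization and 11 to 16 without single libraries, 11 being without iPKO 2. It was 0 with pair averages with or without the term, 1 with the estimated correlation, and for protein-coding pair averages 2 with the term and 0 without. Its higher count of 1 was 2 with quantile normalization or protein-coding genes, 5 with the block or the odd/even term, 9 and 4 in the odd- and even-numbered libraries, and 0 with pair averages, those with the term, protein-coding pair averages and the estimated correlation. Of all tested genes 785 were called higher in the main fit, 1355 with the block and 1908 with the odd/even term.

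Signs turned only for genes not called. In the odd-numbered libraries the log2 change was -0.10 for Hmgcs1, -0.067 for Scap, -0.093 for Stard4 and 0.083 for Acaca, and in the even-numbered ones 0.14 for Fdft1, 0.059 for Sc4mol, -0.18 for Hsd17b7 and 0.056 for Sc5d. Fdft1 was at 0.036 with quantile normalization and 0.032 with median ratio scaling, and Sc4mol at 0.000992 with quantile normalization. Without single libraries the log2 change ran from -0.070 to 0.106 for Hmgcs1, -0.088 to 0.065 for Fdft1, -0.159 to 0.014 for Sc4mol and -0.031 to 0.077 for Hsd17b7. The cause was not tested. FPKM gives no depth, so no limit from counting can be set, and the number of libraries limits the precision.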
